A study of Citrus sinensis and Citrus junos and Citrus trifoliata with 12 samples.

Results

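A set of 65 genes was expressed at 10 FPKM or more in stem and leaf of grafted orange trees and nearly or wholly without reads in the roots of both rootstocks. The genes were chosen on FPKM, the authors' expression value scaled by gene length and library size, with a gene missing from a library's table taken as 0. A member had at least 10 FPKM in all 8 stem and leaf libraries and at most 0.2 FPKM in all 4 root libraries. Its mean in leaf was 0.5 to 2 times its mean in stem, and its mean on one rootstock differed from that on the other by less than 1.5 times in stem and in leaf. Of 26559 gene IDs in the files, 8654 met the scion limit and 152 of those also met the root limit. The ratio of leaf to stem then left 91, the rootstock ratio in stem left 78, and that in leaf left the 65. No member was removed by the limit of 200 that the rule also sets.

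The trees carried one scion, 'Lane Late' navel orange (Citrus sinensis), on 2 rootstocks, Ziyang xiangcheng (Citrus junos, Cj) and Poncirus trifoliata (Pt). Root, stem and leaf of each combination were sampled at 140 DAF, as the labels write the stage, and each of the 6 groups had 2 libraries. All trees stood in one orchard, planted in 2009, and the RNA was sequenced in 2015. The series title speaks of saline-alkali stress, but no label marks a stressed or an unstressed group. Roots belong to the rootstock and stem and leaf to the scion, so organ and species change together between root and scion libraries and cannot be told apart here. In whole organs, fewer cells of a type and less RNA per cell cannot be told apart either. The titles mark the libraries of a group as biological replicates (bio), but the labels do not say whether they came from separate trees. A p-value therefore measures the spread between these libraries, which may not be the spread between trees.

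Leaves and young green stems share tissues that roots growing in soil lack, among them chloroplast-bearing cells and a cuticle-covered epidermis. Nuclear genes of photosynthesis are the textbook case of genes that are active in shoots and nearly silent in roots. Which of the 65 belong to such pathways was not analysed here, because the files give no gene names and 0 of the 65 IDs matched a RefSeq gene table. Members are therefore given by ID, without a function.

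The libraries held 9356633 to 11383332 estimated counts. The 65 genes were listed in all 8 scion libraries. Together they took 0.487% and 0.513% of all counts in the stem libraries on Cj, and 0.515% ± 0.00184 in stem on Pt, 0.828% ± 0.00566 in leaf on Cj and 0.694% ± 0.0132 in leaf on Pt (SD, n = 2 each). The leaf shares were higher than the stem shares, and the share in leaf on Cj was above that on Pt in both libraries. Most of that gap lay in the 5 highest members: without them the leaf shares were 0.328% and 0.323% on Cj and 0.314% in each library on Pt. In the 4 root libraries the members had 112.62 counts in all, of 38375815.

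**Figure D1:**
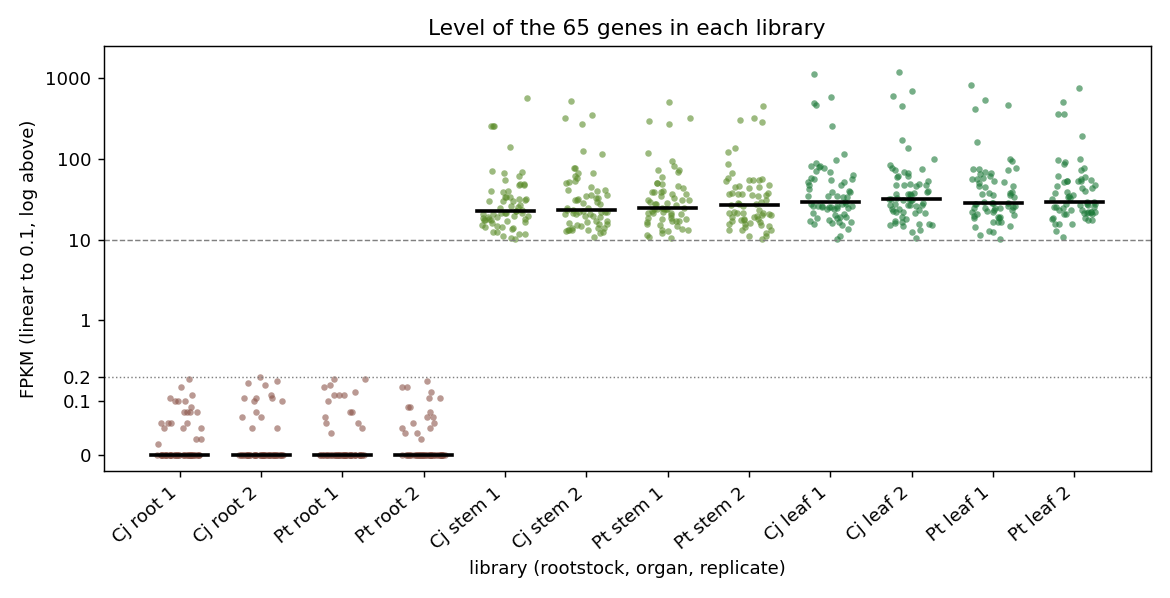
FPKM of each of the 65 genes (points) in each library, with the median as a bar. The scale is linear up to 0.1 and logarithmic above, and lines mark 10 and 0.2 FPKM. The medians lie at 22.6 to 26.7 FPKM in stem and 28.6 to 31.5 in leaf, and at 0 in every root library.

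The members spanned a 67.5-fold range of mean scion level, from 11.0 to 745 FPKM, with a median of 28.6. The median of all 8654 genes that met the scion limit was 31.7 FPKM. Only 5 members reached a mean of 100 FPKM, and these took 54.8% of all the members' scion counts. A further 10 lay between 50 and 100 FPKM, since 15 in all reached 50, and 15 were under 20.

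Cs8g08710 was the most abundant member. It stood at 573 and 513 FPKM in stem on Cj, 508 and 457 in stem on Pt, 1129 and 1189 in leaf on Cj, and 826 and 761 in leaf on Pt. Every leaf value was above every stem value, and both leaf values on Cj were above both on Pt. In roots it had 1 and 3 counts on Cj and 2 and 3 on Pt, the highest sum of any member. Its mean scion FPKM was 6070 times the root level computed from the counts summed over the 4 root libraries, and 5620 times the mean of its deposited root FPKM.

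Cs3g06180 was the next, at 257 and 268 FPKM in stem on Cj, 321 and 322 in stem on Pt, 585 and 690 in leaf on Cj, and 466 and 500 in leaf on Pt. It was lower on Cj in stem and higher on Cj in leaf, without overlap in either organ. Its scion mean was 4590 times the root level from summed counts, which rested on 6 counts, and 4610 times the mean deposited root FPKM.

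Cs1g20705 and orange1.1t05255 came next and had no count in any root library. Cs1g20705 stood at 254 and 353 FPKM in stem on Cj, 269 and 303 in stem on Pt, 495 and 592 in leaf on Cj, and 530 and 359 in leaf on Pt. Orange1.1t05255 stood at 253 and 319 FPKM in stem on Cj, 294 and 289 in stem on Pt, 463 and 451 in leaf on Cj, and 412 and 362 in leaf on Pt. For both, each leaf value exceeded each stem value, while the rootstocks overlapped in stem. A count of 0 allows up to 3 counts, taken here over the 4 root libraries together, and against that limit the scion mean was at least 1960-fold higher for Cs1g20705 and at least 11400-fold higher for orange1.1t05255. These bounds cover counting error only. Both genes had estimated counts off a whole number in all 8 scion libraries, so their levels also depend on how shared reads were divided.

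Cs8g09070 was the last member above 100 FPKM. It had 142 and 114 FPKM in stem on Cj, 119 and 121 in stem on Pt, 254 and 172 in leaf on Cj, and 162 and 192 in leaf on Pt. Both organs were again without overlap, leaf above stem. Behind it came Cs7g31975, orange1.1t05559, orange1.1t01720, orange1.1t04841 and orange1.1t04220, with mean scion levels of 88.6, 86.7, 78.2, 73.5 and 72.4 FPKM. The lowest members were Cs6g03590 with 12.7 FPKM and Cs5g22360 with 11.0 FPKM.

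Within the bounds that the rule sets, most members leaned to leaf. The mean was higher in leaf for 52 of the 65 (80.0%), and the median ratio of leaf to stem was 1.29. Among all 8654 scion genes the leaf mean was higher for 45.0%, with a median ratio of 0.963. All 4 leaf libraries were above all 4 stem libraries for 29 members (44.6%), against 20.4% of the 8654, and the reverse held for 2 members (3.08%), against 24.5%. The 2 were Cs2g24782 and Cs5g23840, named after their values were seen. The rule used this ratio, so the counts describe the members and carry no test. Library scaling by TMM shifts this ratio by 0.13 on the log2 scale, which takes the median of the 8654 from -0.05 to 0.08 and that of the members from 0.37 to 0.50. Of the 152 genes over the scion limit and under the root limit, 53 had over 2 times as much in leaf and 8 over 2 times as much in stem. These 152, which include the members, leaned to leaf as well: the leaf mean was higher for 79.6%. All 4 leaf libraries were above all 4 stem libraries for 55.3% of the 152, and the reverse held for 6.58%.

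Members closest to the upper bound were Cs1g14270, with a mean of 16.9 FPKM in stem and 33.4 in leaf, and Cs2g18160, with 24.0 and 47.1 FPKM. In the other direction stood Cs2g24782, with 38.8 FPKM in stem and 25.9 in leaf, and Cs7g31975, with 105.0 and 72.2 FPKM. No member came near the lower bound of 0.5, since the lowest ratio was 0.668 in Cs2g24782. The nearest genes outside had a ratio of 2.03 (Cs3g12640) and 0.408 (Cs7g23430).

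**Figure D2:**
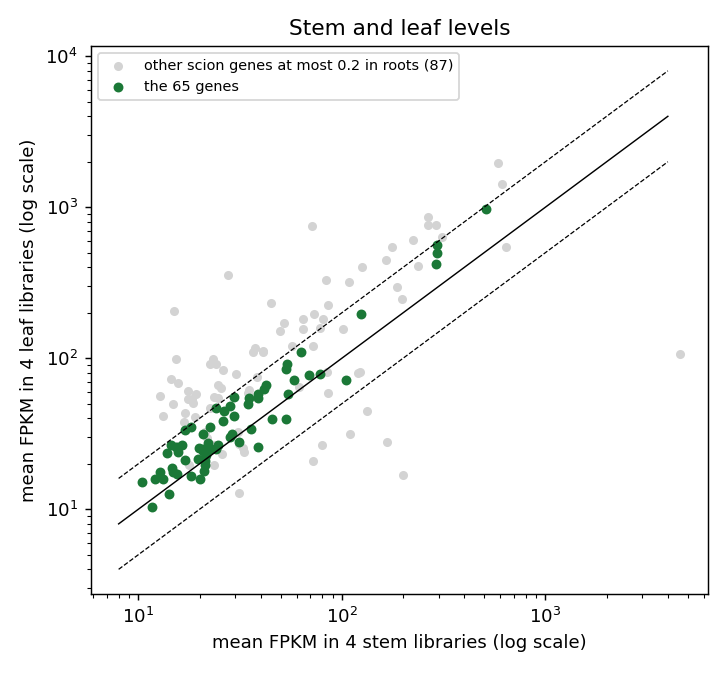
Mean FPKM in the 4 stem libraries against the 4 leaf libraries, both on log scales, for the 65 genes (green) and the other genes over 10 FPKM in scion and at most 0.2 in roots (grey). The solid line marks equal levels and the dashed lines ratios of 0.5 and 2. More points lie above the line of equal levels (52 of the 65) than below it.

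The rootstock under the scion moved the members little, as the rule requires. The median ratio of Cj to Pt was 0.918 in stem and 1.03 in leaf, and it ranged from 0.698 to 1.28 in stem and from 0.719 to 1.46 in leaf. In stem 24 members had a higher mean on Cj and in leaf 36 did. Both Cj libraries were above both Pt libraries for 13 members in stem and 15 in leaf, and the reverse held for 21 in stem and 13 in leaf. Over the 8654 scion genes, the corresponding shares were 21.8% and 24.3% higher on Cj and 28.5% and 31.8% lower on Cj, in stem and in leaf. The rule chose on these ratios, so nothing is read from the counts. In 4 members (6.15%) the libraries of the rootstocks stood in opposite order in stem and leaf without overlap in either, against 5.58% of the 8654.

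The member lowest on Cj in stem was Cs8g14040, with 15.9 and 14.1 FPKM on Cj and 21.5 in each library on Pt. The next was orange1.1t04220, with 38.6 and 50.3 FPKM on Cj against 72.1 and 54.2 on Pt. The highest ratios on Cj in stem belonged to orange1.1t04947, with 31.7 and 27.6 against 18.8 and 27.5 FPKM, and to Cs8g04870, with 20.95 and 23.5 against 15.7 and 19.2 FPKM. In each of these 4 the libraries of the rootstocks did not overlap, although for orange1.1t04947 the gap was 27.6 against 27.5.

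In leaf, Cs8g08710 had the highest ratio, and Cs9g05370 the next, at 67.8 and 67.2 FPKM on Cj and 50.6 and 47.7 on Pt. The lowest ratios were those of orange1.1t04400, at 13.4 and 14.6 against 16.6 and 22.3 FPKM, and of Cs1g14270, at 25.3 and 30.8 against 33.95 and 43.65 FPKM. None of these 4 overlapped between rootstocks. Members just inside the rootstock bounds had ratios of 1.28 (nearest gene outside 1.54) and 0.698 (outside 0.602) in stem, and 1.46 (outside 1.52) and 0.719 (outside 0.659) in leaf.

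**Figure D3:**
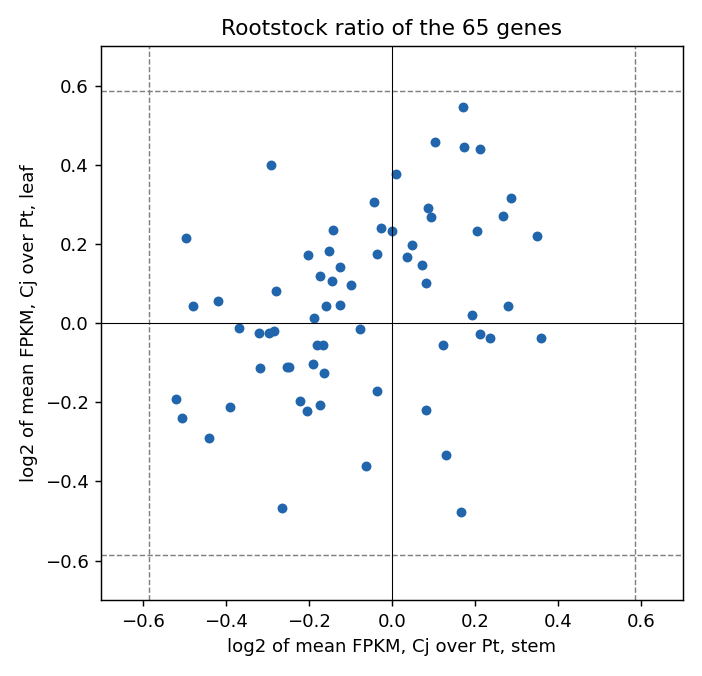
Log2 of the mean FPKM on Cj over that on Pt, in stem (horizontal) and leaf (vertical), for each of the 65 genes. Dashed lines mark the 1.5-fold bounds. Points lie on all sides of the centre, with 17 genes higher on Cj in both organs, 22 lower in both, 18 lower in stem and higher in leaf, 7 the other way round and 1 with equal means in stem.

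Replicates of a group differed by a median of 0.18 on the log2 scale in stem on Cj, 0.17 in leaf on Cj, 0.16 in stem on Pt and 0.21 in leaf on Pt. The same medians over the 8654 scion genes were 0.15, 0.14, 0.14 and 0.14. The widest gap was that of orange1.1t01173 in stem on Cj, at 29.8 and 15.4 FPKM, and the next that of Cs7g31975 in the same group, at 66.9 and 125.0 FPKM. The median absolute distances between replicates were thus slightly above those of other scion genes in all 4 scion groups.

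Absent from roots meant close to the limit of what the libraries could count, and not always 0. In roots 29 members had no count at all, and 36 had at least 1 estimated count in 1 or more of the 4 libraries. Of those 36, 9 had counts in Cj roots alone, 9 in Pt roots alone and 18 in roots of both. Cj and Pt roots held nearly equal sums, 55.89 counts of 19531406 and 56.73 of 18844410. No member exceeded 4 counts in any root library, and 12 had more than 3 counts over the 4 libraries together. The highest sums were 9 in Cs8g08710 and 8.03 in Cs3g09090.

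For 7 members a single count in a root library would already have exceeded 0.2 FPKM, because the genes are short, so the limit allowed them no whole count. The other 22 members without a root count could have had 1 and still met the rule. Members without a root count had a median length of 837 bases, against 1684 bases for those with a count, and a median of 2190 against 5211 counts summed over the 8 scion libraries. The root limit is set in FPKM and so allows a short gene fewer counts than a long one. Part of the link with length is therefore built in by the rule. Any further part of length, and that of summed scion counts, was not tested. The scion mean was at least 97.7-fold to at least 11400-fold above the limit for the 29, with a median bound of 317, and 322-fold to 6070-fold above the root level from summed counts for the 12 with more than 3 counts (316-fold to 5620-fold above their mean deposited root FPKM). The bounds for the 29 cover counting error only.

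**Figure D4:**
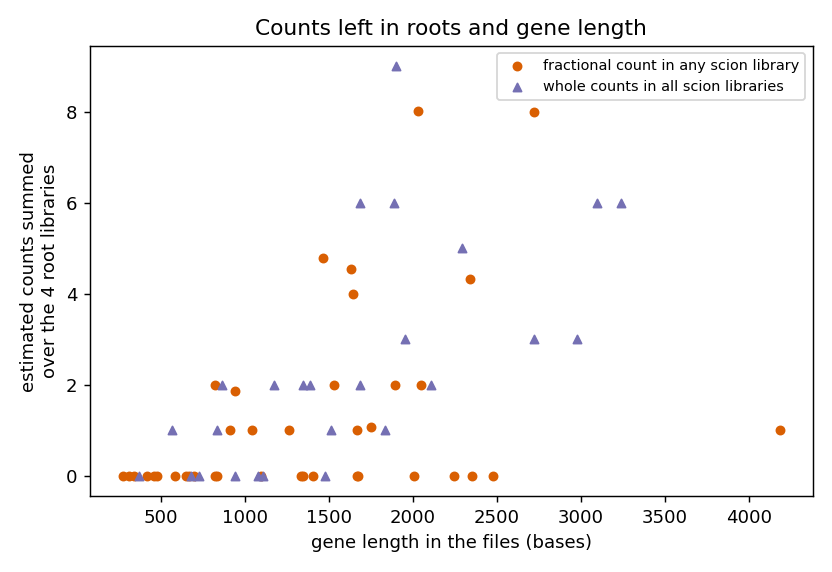
Estimated counts summed over the 4 root libraries against gene length, for each of the 65 genes. Circles mark genes with a fractional count in any scion library and triangles those with whole counts in all 8. The highest sum is 9 counts, and genes at 0 have a median length of 837 bases. The root limit in FPKM allows shorter genes fewer counts.

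The root limit was met by few genes. Of the 8654 scion genes 5063 (58.5%) also had at least 10 FPKM in all 4 root libraries, 152 (1.76%) met the limit, and a further 257 exceeded it but stayed at or under 1 FPKM in every root library. At the edge, Cs3g01390 had 0.20 FPKM in 1 Cj root library and the gene nearest outside, Cs5g17290, reached 0.21. At the scion limit Cs6g03590 had a lowest value of 10.1 FPKM and the nearest gene outside, orange1.1t00540, 9.98.

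The difference between Cj and Pt roots was tested across all genes. Of 21261 genes tested 51.7% were called, at a Benjamini-Hochberg adjusted p under 0.05 in the quasi-likelihood test of edgeR, 27.4% as higher and 24.3% as lower in Cj. The rule holds every member at a few counts in all root libraries, and the members entered the test only through their scion counts: with the root libraries alone, 0 of the 65 passed the filter. In the fit on all libraries 1 member was called, Cs5g23840, with 1.82 and 2.51 counts in Cj roots and 0 in both Pt root libraries (edgeR's quasi-likelihood test, adjusted p = 0.0190). By unadjusted p under 0.05 the number was 2, and DESeq2 called 1. The call of Cs5g23840 rests on its few root counts, rounded for the test, and on a spread estimated over all 6 groups. Nothing about the members is read from it or from these numbers.

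That call held in some edgeR fits that left out 1 root library and was lost in others. In such a fit the lone library left in an arm is assumed to vary like the other groups, so these fits are not read for calls. Over the other alternatives the adjusted p of Cs5g23840 ranged from 0.0034 with limma on log2(FPKM + 0.1) to 0.515 with limma on log2(FPKM + 1).

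Several features on which the rule set no bound, though length entered it through FPKM, set the members beside other scion genes. They are described here without a test. The genes were shorter, with a median of 1404 bases against 1753 for the 8654 scion genes, and 33.8% were under 1000 bases, against 15.3%. Only 18 of the 65 (27.7%) had more than 1 transcript in the files, against 53.7%. IDs of the form orange1.1t, which carry no group number of the form Cs1 to Cs9, made up 16 of the 65 (24.6%) and 14.2% of the 8654. The remaining 49 members were spread over all 9 numbered groups, from 3 in Cs4 and in Cs6 to 8 in Cs3. For the 152 genes that met the scion and root limits alone, the shares were close to those of the members, at 30.3% under 1000 bases, 33.6% with several transcripts and 23.0% with an orange1.1t ID.

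The members also differed from other scion genes in the counts themselves. An estimated count is fractional where reads that fit several genes are divided between them. Of the 65 members 39 (60.0%) had a fractional count, off a whole number by more than 0.005, in at least 1 scion library, and 28 had one in all 8. The shares among the 8654 scion genes were 21.3% and 13.9%. The 152 genes lay between, at 44.1% and 29.6%. Levels of these 39 members are therefore uncertain at the level of the single gene, among them 7 of the 10 most abundant.

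**Figure D5:**
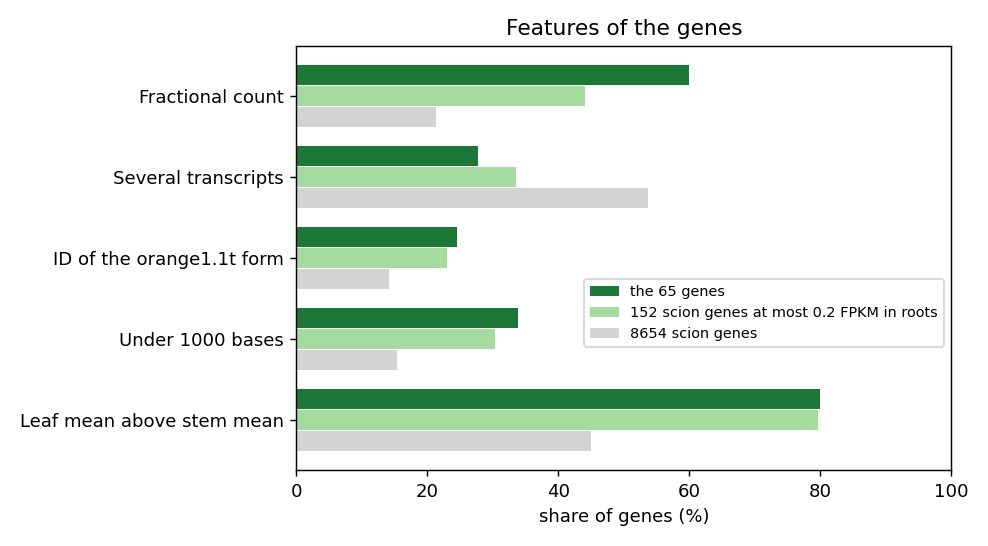
Share of genes (%) with each feature among the 65 genes, the 152 genes with at least 10 FPKM in all scion libraries and at most 0.2 in all root libraries, and all 8654 genes with at least 10 FPKM in all scion libraries. Fractional counts were found in 60.0%, 44.1% and 21.3% of them.

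For some members the gene that shared the reads could be found, because both fractional counts then add up to a whole number in every library. Among the 34 members with fractional counts in at least 4 scion libraries, 7 had such a partner, with a sum whole within 0.011 in every one of those libraries. Over the scion genes with such counts it was 561 of 1548 (36.2%). In stem on Cj, replicate 1, orange1.1t05559 had 162.52 counts and its partner Cs7g06000 had 1537.48, together 1700. This search was devised after the fractional counts had been seen.

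The partners differed widely in roots. Cs7g06000, the partner of orange1.1t05559, stood at 87.7 and 112.0 FPKM in Cj roots and 152.6 and 117.2 in Pt roots, and at 48.1 to 67.6 FPKM in the scion libraries. Cs3g01400, the partner of Cs3g01390, stood at 70.9 and 69.7 FPKM in Cj roots and 54.5 and 58.6 in Pt roots, with 81.9 to 92.5 in scion. Cs1g19720, the partner of Cs1g19760, had 21.5 and 21.2 FPKM in Cj roots and 23.4 and 24.1 in Pt roots, with 51.1 to 121.8 in scion. In these 3 pairs the partner was expressed in every root library while the member had at most 0.20 FPKM there.

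Cs3g23580, the partner of Cs1g14270, was lower in roots, at 2.14 and 1.51 FPKM in Cj and 2.20 and 3.80 in Pt. The partners of the last 3 had at most 0.30 FPKM in any root library. Cs1g16000, the partner of Cs1g15990, had 61.4 to 169 FPKM in scion and at most 0.07 in roots; it met both limits of level but was outside the rule by its rootstock ratio in stem. Cs5g24830, the partner of Cs3g04350, had 2.42 to 4.19 FPKM in scion and none in roots, and Cs1g14183, the partner of Cs1g10220, 0.27 to 1.18 in scion and at most 0.30 in roots. For these 7 members, how reads were split between the pair bears on the level, and its part in the absence from roots was not tested.

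Few members stood side by side in the order of IDs. Cs9g09220 and Cs9g09230 were consecutive, with means of 23.8 and 29.2 FPKM in scion, as were Cs6g03586 and Cs6g03590, with 22.5 and 12.7 FPKM. No run of 3 or more was found, and the same 4 members were counted when neighbours up to 3 places away were allowed. Beyond each end of the pairs the root limit was met by Cs9g09260, which was nearly silent in scion too (mean 0.0538 FPKM), and by none of the other 3 flanking IDs.

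IDs next to a member met the root limit more often than those next to the 8654 scion genes, but most of them did not meet it. Of the 130 places next to a member, 48 (36.9%) held a gene with at most 0.2 FPKM in all roots, against 12.9% of the places next to the 8654 scion genes. Within 3 places the shares were 26.9% and 13.7%. Only 42 of the 130 held a gene that met the scion limit. Of the 48, only 6 also met the scion limit, so the rest were below it in scion as well as low in roots. Among the 6 were the 4 paired members, which the rule itself holds under the root limit. At the other extreme, 30 of the 130 held genes with at least 10 FPKM in every root library.

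Transcript usage was compared through the length that the files give, which was constant between libraries for all 18986 genes with 1 transcript and varied for 7367 of 7573 with several. Of the 18 members with several transcripts, 3 had lengths that did not overlap between the 4 stem and 4 leaf libraries, against 9.15% of the 4643 scion genes with several transcripts. Orange1.1t05255 measured 2478 ± 0.779 bases in stem and 2476 ± 1.03 in leaf (SD, n = 4 each). Cs2g24782 measured 831 ± 6.19 bases in stem and 813 ± 7.41 in leaf, and Cs1g10220 1519 ± 11.6 in stem and 1539 ± 6.07 in leaf (SD, n = 4 each). In an exact test of the 4 leaf against the 4 stem libraries, each of the 3 had p = 0.0286, the smallest that 4 against 4 allows. Adjusted over all genes with several transcripts, this exact test gave p = 0.312 for each. These lengths are given as a description, and no difference in transcript usage is read from them.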

How the data were processed

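RNA was measured in 12 libraries, poly(A)-selected and fragmented per the labels' protocols. The authors deposited 1 table per library, not pooled. Per the file headers it holds an expected count per gene, not scaled for depth, an FPKM, which the authors scaled by length and library size, and a length. The aligner, annotation, build and strandedness are not stated in the labels or headers, so values of near-identical copies and of overlapping or antisense genes are uncertain.

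Groups and replicate numbers come from the titles. The rule was applied to FPKM. Expected counts were rounded and tested with edgeR 4.0.16 (limma 3.58.1, DESeq2 1.42.0, R 4.3.3): filterByExpr, TMM, 6 group means on 12 libraries, quasi-likelihood test, Benjamini-Hochberg adjustment over 21261 genes. The fit was tested on simulated data, with changes set only in genes of higher root counts than any member has. That test therefore does not cover the members. Replicates differed beyond sampling noise (chi-square per degree of freedom 2.86 to 11.8). Counts and depth limits cover counting error only.

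The members, lists and tests were chosen with earlier results of these data known. Named members are the 10 highest and 2 lowest, the 2 most extreme for each ratio, root count and replicate gap, those at each threshold, and called genes. None of the 26559 IDs matched the 29331 RefSeq genes of DVS_A1.0 (0 matches), so the planned lists by description were not applied and no sequence is shown.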

Additional observations from a re-analysis of the deposited data

Results flagged for a closer look

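In 4 members the libraries on Cj and on Pt did not overlap and stood in opposite order in stem and in leaf; this difference between organs was not tested, because the rule chose on both ratios. Cs3g06180 had a log2 ratio of Cj to Pt of -0.29 in stem and 0.40 in leaf, a difference of -0.69. Cs2g18160 had 18.1 and 22.0 FPKM on Cj against 28.5 and 27.4 on Pt in stem, and 47.8 in each Cj library against 46.2 and 46.6 in leaf, a difference of -0.52. Cs5g05670 had 17.6 and 19.7 against 31.1 and 21.5 FPKM in stem and 38.4 and 36.5 against 28.6 and 35.8 in leaf, a difference of -0.71. Orange1.1t04400 went the other way, with 18.0 and 20.5 against 17.9 and 16.4 FPKM in stem and lower values on Cj in leaf, a difference of 0.64. The share of members with this pattern, 6.15%, was near the 5.58% (483 genes) among the 8654 scion genes.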

How the results depend on the processing

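The number of members followed the limits chosen: 116 with a root limit of 0.5 FPKM, 29 with no root count allowed, 114 with a scion limit of 5 FPKM and 31 with 20, and, added after seeing the data, 26 without genes that have a fractional count. It was 47 with a root limit of 0.1 and 49 with FPKM rescaled by TMM, all 49 of them members, and 60 to 79 without each library in turn. Members without a root count numbered 31 to 34 without each root library. The mean share of scion counts of all 65 members, 0.634%, was 0.576% on TMM-scaled library sizes, 0.287% without the 5 highest members (added after seeing the data) and 0.606% to 0.656% without each scion library. The members' median log2 ratio of leaf to stem, 0.37, was 0.50 with TMM scaling and 0.36 to 0.42 without each library. The median log2 ratio of Cj to Pt was -0.174 to -0.0181 in stem, and -0.0237 to 0.0519 in leaf, where it changed sign without Pt leaf replicate 1. The members called between roots were 0 with limma on log2(FPKM + 1) and 6 on log2(FPKM + 0.1). Without Pt root replicate 2 the call passed from Cs5g23840 to another member, Cs3g04350, in the opposite direction (lower in Cj). Fits that leave a lone library in an arm are therefore not read for calls. The root libraries alone kept no member after the filter. With the replicate number as a block 1 member was called, as without it; over the 15 pairs of groups the replicate differences had r of -0.06 to 0.13 across genes, over 0.1 in 1 pair, so the numbers were not taken to pair the samples. Depth limits all root values: a count of 0 allows up to 0.303 to 0.321 CPM in a root library.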
